A study of Mus musculus domesticus with 12 samples.

Results

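Klf1, Tal1, Lmo2, Ldb1, Nfe2, Gfi1b, Bcl11a, E2f4, Klf3 and Cbfa2t3 encode transcription factors and cofactors that act in red cell development. They are 10 of the 55385 genes in the deposited tables, were chosen by name, and were all among the 17650 genes that passed the filter on low counts. The cells came from livers of C57BL/6J embryos (mouse, E14.5), were depleted of lineage-positive cells and were then infected with a retrovirus carrying a short hairpin RNA (shRNA). In the shDis3 group the shRNA targeted Dis3, and in the shExosc10 group it targeted Exosc10. Both genes encode catalytic subunits of the RNA exosome, the complex that trims and degrades RNA from its end. The shLuc controls carried the same kind of vector with an shRNA against firefly luciferase, which mouse cells lack, so all 3 groups were infected, cultured and sorted. After 2 days of culture in erythroid expansion medium, infected (GFP-positive) cells without the late erythroid antigen Ter119 and with intermediate to positive surface CD71 (the receptor for transferrin) were sorted, and each group gave 4 total RNA libraries. Whether replicates came from separate cultures or litters is not stated in the labels, so each p-value below rests on the spread among these libraries, part of which may be technical.

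Red cell transcription factors work largely as assemblies on shared enhancers. TAL1 binds DNA with a partner E protein, LMO2 bridges TAL1 to LDB1, LDB1 self-associates and brings distant elements together, and CBFA2T3 (also called ETO2) is a corepressor that joins the same complex, which GATA1 anchors. KLF1 activates globin, heme and membrane genes, KLF3 is a repressor of the same zinc finger family, and NFE2, GFI1B, BCL11A and E2F4 add further activating and repressing inputs on globin genes, progenitor genes and the cell cycle.

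The libraries held 14936178 to 32397192 counts. Normalised CPM are counts scaled to library size with TMM factors, and TPM are the authors' values, scaled for length as well. Each target was lowest under its own shRNA. Dis3 measured 38.3 ± 12.1 CPM in shDis3, 143 ± 35.9 in shExosc10 and 131 ± 20.3 in shLuc libraries (SD, n = 4 each), and Exosc10 measured 114 ± 25.2, 26.4 ± 5.50 and 98.2 ± 12.01 CPM in those groups. By edgeR's quasi-likelihood test with Benjamini-Hochberg adjustment, Exosc10 fell in shExosc10 against shLuc (log2 fold change -1.89, SE 0.21, adjusted p = 0.00502), whereas Dis3 in shDis3 against shLuc had a log2 fold change of -1.78 (SE 0.24) with an adjusted p of 0.0581.

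Some libraries stood apart from their group. Across genes, the log2 CPM of shDis3 replicate 3 and shLuc replicate 4 correlated at r = 0.986, while shLuc replicate 4 reached at most 0.946 with another shLuc library. For shDis3 replicate 4 with shExosc10 replicate 1, r was 0.981, while within its own group the first reached 0.968 at most and the second 0.942. Replicate 2 of shDis3 also stood apart, at no more than 0.93 with its own group and 0.963 with shLuc replicate 2, and it held 664.7 CPM of olfactory receptor genes, against 7.32 to 33.2 CPM in the other shDis3 libraries. In all, 8 of 12 libraries were nearer to a library of another group than to any of their own. Results are therefore also given without shDis3 replicate 4, shExosc10 replicate 1 and shLuc replicate 4, and for the members also without shDis3 replicate 2, which leaves 2 shDis3 libraries. These libraries were picked by their expression, so values without them describe the remaining 9 or 8 libraries and are not an independent test.

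Erythroid markers were present in every library. The 15 measured markers summed to 924 to 2271 TPM in shDis3, 1181 to 2846 TPM in shExosc10 and 655 to 2651 TPM in shLuc libraries, led by the α-globin gene Hba-a1. Markers of other blood cells were present as well. The 12 granulocyte markers, with the myeloperoxidase gene Mpo highest on average over the 12 libraries, summed to 1146 to 3996, 1328 to 1796 and 821 to 3204 TPM in shDis3, shExosc10 and shLuc, and none was at 0 in all libraries. The 17 megakaryocyte markers, led by Pf4, summed to 253 to 344 TPM in shDis3, 112 to 266 TPM in shExosc10 and 38.9 to 377 TPM in shLuc, where replicate 4 held 377 TPM and the others at most 88.3 TPM. The mast cell list of 10, in which the IgE receptor gene Fcer1a was at 0 in every library, summed to 55.4 to 147, 42.1 to 138 and 30.98 to 242 TPM. In bulk samples such as these, fewer cells of a type and less RNA per cell cannot be told apart.

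With all 12 libraries, no change of any of the 10 genes passed the test in the 3 comparisons. In shDis3 against shLuc, 0 of 10 had an adjusted p under 0.05 by edgeR, beside 0.0% of all genes tested, and 0 of 10 had an unadjusted p under 0.05, beside 4.07%. In shExosc10 against shLuc, 0 of 10 passed after adjustment, beside 0.00567% of all genes, and 1 of 10, E2f4, had an unadjusted p under 0.05, beside 2.1%. In shDis3 against shExosc10, 0 of 10 passed, beside 0.0113%, and 0 of 10 had an unadjusted p under 0.05, beside 5.98%. DESeq2 and limma on log2(TPM + 1) also called 0 of 10 in each comparison. At an unadjusted p under 0.05, DESeq2 counted 0, 1 and 0 members in that order of comparisons and limma counted 0, 0 and 0.

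The size of the changes that these data leave possible differed between the genes. The log2 fold changes ranged from -0.39 to 0.31 in shDis3 against shLuc (median -0.18, against 0.02 over all genes tested). They ranged from -0.67 to 0.32 in shExosc10 against shLuc (median -0.19, against 0.02), and from -0.34 to 0.51 in shDis3 against shExosc10 (median 0.02, against 0.01). The comparisons with shLuc share those 4 control libraries, and each pair of comparisons shares a group. The 95% confidence interval lay wholly inside a 2-fold change either way for 7, 8 and 8 of the 10 genes in the 3 comparisons, and it spanned 0 for 10, 9 and 10. Gfi1b and Klf1 had the smallest standard error, 0.21, and Cbfa2t3 the largest, 0.46.

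**Figure D1:**
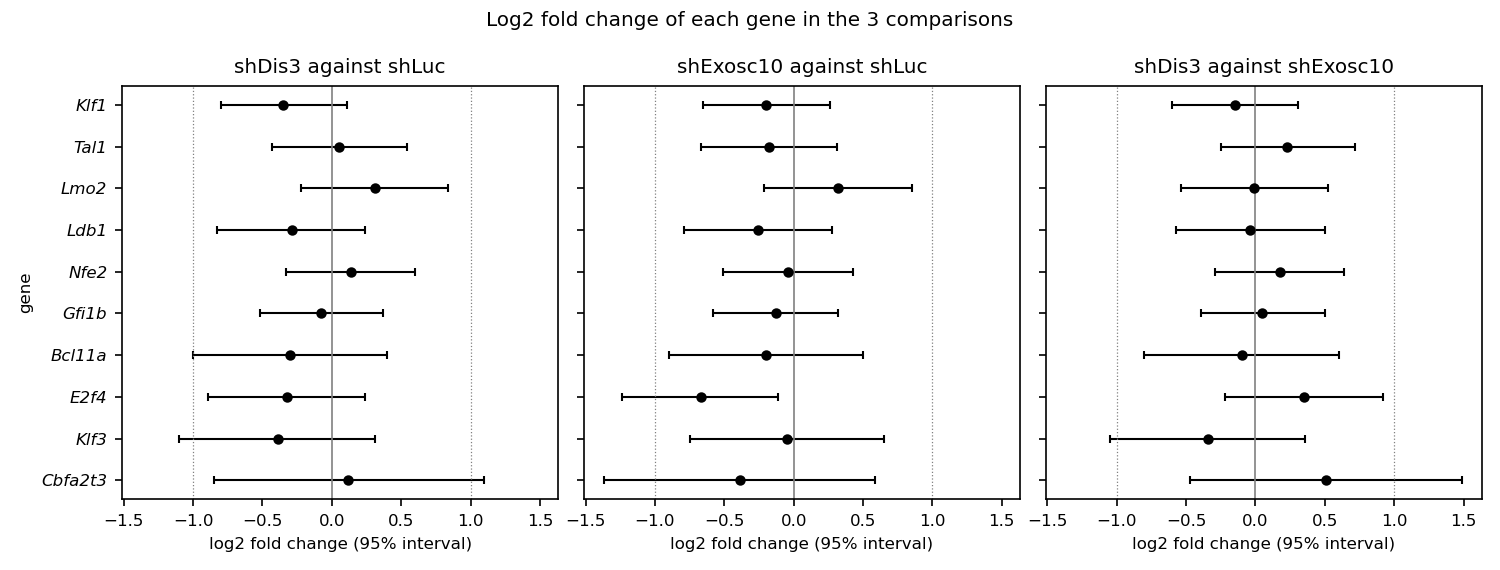
Log2 fold change (horizontal axis) of each of the 10 genes (vertical axis) in the 3 comparisons, with 95% confidence intervals from edgeR; dotted lines mark a 2-fold change. Every interval spans 0 except that of E2f4 in shExosc10 against shLuc (-1.24 to -0.11), and the intervals of Cbfa2t3 are the widest.

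The Krüppel-like factors come first. KLF1 is an activator of the adult β-globin gene and of many other red cell genes, and KLF3 is a repressor that recruits CtBP and is itself a known KLF1 target. Klf1 (ENSMUSG00000054191.8; GRCm38, chromosome 8, 84901928 to 84905291, plus strand) has 1 annotated isoform, and Klf3 (ENSMUSG00000029178.14; chromosome 5, 64803388 to 64832901, plus strand) has 9. Their zinc finger coding sequences are similar, which bears on whether reads can be assigned to one or the other. The most similar exonic coding windows of 84 bases without a gap are printed here 5′ to 3′ on the plus strand from the GENCODE M21 transcripts, at chr8:84904769-84904852 (coding bases 961 to 1044 of 1128) and chr5:64828982-64829065 (coding bases 859 to 942 of 1032). Capitals mark the positions where the genes differ.
Klf1: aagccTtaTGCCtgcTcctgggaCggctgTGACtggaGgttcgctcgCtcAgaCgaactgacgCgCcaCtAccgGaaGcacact
Klf3: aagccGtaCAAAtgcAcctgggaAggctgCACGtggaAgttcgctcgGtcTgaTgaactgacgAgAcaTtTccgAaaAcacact
In this window 63 of 84 bases (75.0%) were identical, and the longest run of coding bases the genes share anywhere was 12 bases. Every one of the 120 member counts (10 genes in 12 libraries) was a whole number, while 4.55% of all gene counts were not, so no fractional assignment is visible in them.

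Klf1 measured 147, 85.0, 137 and 119 CPM in shDis3 libraries 1 to 4, 108, 170.5, 132 and 131 CPM in shExosc10 libraries, and 137, 159.8, 198 and 127 CPM in shLuc libraries. The highest library was shLuc replicate 3 and the lowest shDis3 replicate 2, and the 3 groups overlapped. Its log2 fold change was -0.35 (SE 0.21; interval -0.80 to 0.11) in shDis3 against shLuc, -0.20 (SE 0.21) in shExosc10 against shLuc and -0.15 (SE 0.21) in shDis3 against shExosc10, each with an adjusted p of 1.0 by edgeR. With each library left out in turn, the first of these ranged from -0.44 to -0.20, at -0.21 without shDis3 replicate 2 and -0.20 without shLuc replicate 3.

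Gm20033 overlaps Klf3 on the opposite strand and C230096K16Rik on the same strand. Klf3 had the lowest mean CPM of the 10 genes. It measured 55.9, 43.6, 51.3 and 19.8 CPM in shDis3 libraries 1 to 4, 24.7, 72.5, 63.4 and 56.0 CPM in shExosc10 libraries, and 52.2, 69.3, 55.8 and 47.0 CPM in shLuc libraries. The lowest values were those of shDis3 replicate 4 and shExosc10 replicate 1, the pair that resembled each other across the transcriptome, and the other 10 libraries lay between 43.6 and 72.5 CPM. Its lowest count was 534 reads, in shDis3 replicate 4, with an exact Poisson 95% interval of 490 to 581 for counting error only, so counting error was small beside the spread between libraries. For Klf3 the log2 fold change was -0.39 (SE 0.33; interval -1.10 to 0.31) in shDis3 against shLuc, -0.05 (SE 0.33) in shExosc10 against shLuc and -0.34 (SE 0.33) in shDis3 against shExosc10.

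**Figure D2:**
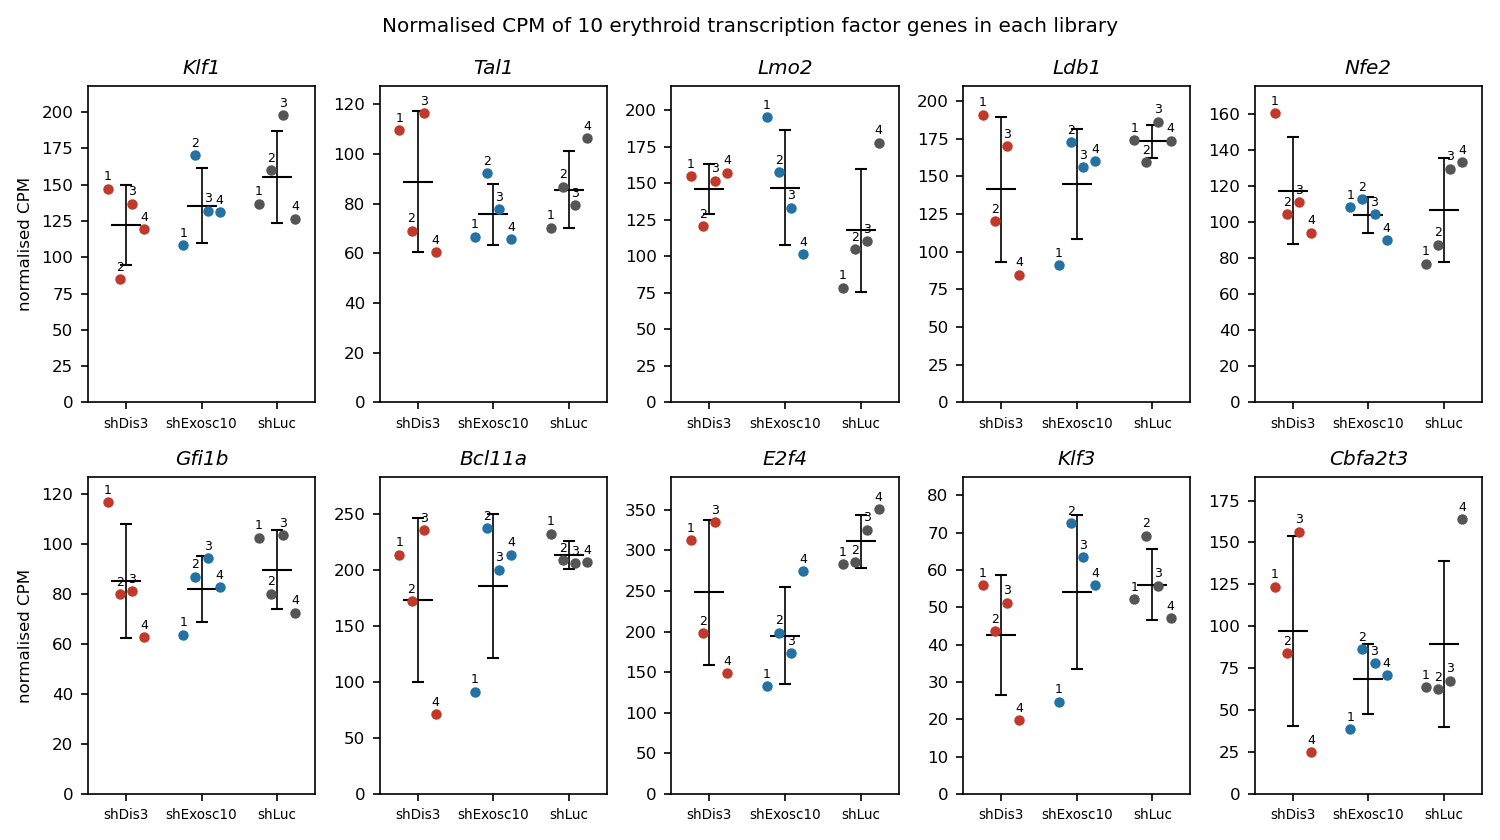
Normalised CPM (vertical axis, starting at 0) of each of the 10 genes in shDis3, shExosc10 and shLuc libraries; points are libraries numbered by replicate, and the bar and whiskers are the mean ± SD of 4. In Ldb1, Bcl11a, E2f4, Klf3 and Cbfa2t3 the points of shDis3 replicate 4 and shExosc10 replicate 1 lie lowest, and only in E2f4 do all shExosc10 points lie below all shLuc points.

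The TAL1 complex was represented by 4 genes. Tal1 (ENSMUSG00000028717.12; chromosome 4, 115056426 to 115071755, plus strand), which encodes the helix-loop-helix factor of the complex, measured 109.6, 69.1, 116 and 60.4 CPM in shDis3 libraries 1 to 4, 66.7, 92.2, 77.9 and 65.8 CPM in shExosc10 libraries, and 70.3, 86.8, 79.3 and 106 CPM in shLuc libraries. The shDis3 libraries held both the highest and the lowest value, and the groups overlapped. Its log2 fold change was 0.05 (SE 0.23), -0.18 (SE 0.23) and 0.23 (SE 0.23) in shDis3 against shLuc, shExosc10 against shLuc and shDis3 against shExosc10.

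Lmo2 (ENSMUSG00000032698.15; chromosome 2, 103957986 to 103981878, plus strand) encodes the LIM-only bridge between TAL1 and LDB1. It measured 155, 120.4, 152 and 157 CPM in shDis3, 195, 157, 133 and 102 CPM in shExosc10, and 78.4, 105, 110.3 and 178 CPM in shLuc libraries 1 to 4. Replicates 1 to 3 of shLuc lay below every shDis3 library, and shLuc replicate 4 lay above every one of them. The log2 fold change was 0.31 (SE 0.25; interval -0.22 to 0.84) in shDis3 against shLuc, 0.32 (SE 0.25) in shExosc10 against shLuc and -0.01 (SE 0.25) in shDis3 against shExosc10. Without the 3 libraries that stood apart, the first of these was 0.54 (SE 0.21, unadjusted p = 0.0233, adjusted p = 0.213 by edgeR). An antisense gene, 4931422A03Rik, overlaps Lmo2, and the strand setting of the counting is not given in the sources used here.

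Ldb1 (ENSMUSG00000025223.15; chromosome 19, 46031570 to 46045214, minus strand), whose product holds enhancers and promoters together, measured 191, 120.2, 169.9 and 84.9 CPM in shDis3, 91.2, 173, 156 and 160.3 CPM in shExosc10, and 174, 159.6, 186 and 174 CPM in shLuc libraries 1 to 4. The shLuc libraries lay close together, whereas shDis3 replicate 4 and shExosc10 replicate 1 were the lowest of the 12. Its log2 fold change was -0.29 (SE 0.25) in shDis3 against shLuc, -0.26 (SE 0.25) in shExosc10 against shLuc and -0.04 (SE 0.25) in shDis3 against shExosc10. Pprc1 overlaps Ldb1 on the opposite strand.

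Cbfa2t3 (ENSMUSG00000006362.16; chromosome 8, 122625141 to 122699109, minus strand) is the corepressor gene of the complex. Gm15899 overlaps it on the same strand, and Gm10612 and Gm20388 on the opposite strand. Cbfa2t3 varied most. It measured 124, 83.95, 156 and 25.1 CPM in shDis3 libraries 1 to 4, 38.5, 86.2, 77.9 and 70.9 CPM in shExosc10 libraries, and 63.6, 62.4, 67.6 and 164 CPM in shLuc libraries. The highest value was that of shLuc replicate 4, next to shDis3 replicate 3, and the lowest were those of shDis3 replicate 4 and shExosc10 replicate 1. The highest library held 6.54 times the lowest. With all 12 libraries the log2 fold change was 0.12 (SE 0.46; interval -0.85 to 1.10) in shDis3 against shLuc, -0.39 (SE 0.46; interval -1.37 to 0.59) in shExosc10 against shLuc and 0.51 (SE 0.46; interval -0.47 to 1.49) in shDis3 against shExosc10.

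Cbfa2t3 was the one member called without the 3 libraries first named as standing apart. There it rose by 0.91 on the log2 scale in shDis3 against shLuc (SE 0.22, adjusted p = 0.0268 by edgeR), when 772 of 19126 genes (4.04%) were called. In those libraries shDis3 held 83.95 to 156 CPM and shLuc 62.4 to 67.6 CPM. The 156 CPM was that of shDis3 replicate 3, which was kept although its look-alike, shLuc replicate 4, was left out. This library too was nearer to the other group (r = 0.986) than to its own (0.972 at most). No fit left out both, so the rise depends on which library of that pair was kept. The libraries left out held the highest shLuc value (164 CPM) and the lowest shDis3 value (25.1 CPM), with which these groups overlapped. Without them the fold change of Cbfa2t3 was 0.62 (SE 0.21, adjusted p = 0.159) in shDis3 against shExosc10 and 0.29 (SE 0.21, adjusted p = 1.0) in shExosc10 against shLuc. Leaving out shLuc replicate 4 alone gave 0.58 in shDis3 against shLuc with an adjusted p of 0.882, and with other single libraries left out the adjusted p ranged up to 1.0. The megakaryocyte sum moved with Cbfa2t3 in part: it was 377 TPM in shLuc replicate 4 and 38.9 to 88.3 TPM in the other shLuc libraries, but 253 TPM in shDis3 replicate 4 and 266 TPM in shExosc10 replicate 1, where Cbfa2t3 was lowest. The share of counts from mitochondrial genes was 12.01%, 10.3% and 9.79% in shDis3 replicates 1 and 3 and shLuc replicate 4, where Cbfa2t3 was highest, and 20.9% and 20.8% in shDis3 replicate 4 and shExosc10 replicate 1. It was also 20.9% in shLuc replicate 1 and 12.1% in shLuc replicate 3, whose Cbfa2t3 levels were alike. The megakaryocyte sum is in TPM, whose scale also differed between libraries. The part of that sum and of the mitochondrial share in the result was not tested.

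Without shDis3 replicate 2 as well, 3 of 10 members were called in shDis3 against shLuc, beside 12.3% of all genes. Cbfa2t3 rose by 1.13 (SE 0.16, adjusted p = 0.000183 by edgeR), Lmo2 by 0.66 (SE 0.19, adjusted p = 0.0313) and Tal1 by 0.53 (SE 0.17, adjusted p = 0.0477) on the log2 scale, and the median over all genes tested was -0.17. In shDis3 against shExosc10 it was again 3 of 10, beside 13.5%: Cbfa2t3 rose by 0.84 (SE 0.16, adjusted p = 0.00279), E2f4 by 0.59 (SE 0.18, adjusted p = 0.0386) and Tal1 by 0.53 (SE 0.17, adjusted p = 0.0484), with a median over all genes of -0.20. In shExosc10 against shLuc it was 0 of 10, beside 0.03%. The shDis3 libraries left out held that group's lowest values of Cbfa2t3 (25.1 and 83.95 CPM), Tal1 (60.4 and 69.1 CPM) and E2f4 (149 and 198 CPM). For Lmo2 they held its lowest and highest (120.4 and 157 CPM). The shLuc library left out held that group's highest value of Cbfa2t3 (164 CPM), Lmo2 (178 CPM) and Tal1 (106 CPM). These calls therefore depend on the choice of libraries, with 2 left in shDis3. Without shDis3 replicate 2 alone, 0 members were called in each comparison, and the number of genes at an unadjusted p under 0.05 in shDis3 against shLuc was 1666, against 719 with all 12 libraries.

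Nfe2 (ENSMUSG00000058794.12; chromosome 15, 103248212 to 103258403, minus strand) encodes the larger subunit of NF-E2, which binds the β-globin control region with a small MAF protein and also serves platelet formation. It measured 161, 104, 111 and 94.2 CPM in shDis3, 108, 113, 105 and 90.1 CPM in shExosc10, and 77.0, 87.5, 129.8 and 133 CPM in shLuc libraries 1 to 4. The shExosc10 libraries fell inside the range of shLuc, and shDis3 replicate 1 was highest. In edgeR's fit Nfe2 had a log2 fold change of 0.14 (SE 0.22) in shDis3 against shLuc, -0.04 (SE 0.22) in shExosc10 against shLuc and 0.18 (SE 0.22) in shDis3 against shExosc10.

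The repressor genes were Gfi1b and Bcl11a. Gfi1b (ENSMUSG00000026815.14; chromosome 2, 28609450 to 28621982, minus strand) encodes a zinc finger repressor that recruits the demethylase LSD1. It measured 117, 79.8, 81.0 and 62.7 CPM in shDis3, 63.7, 86.8, 94.4 and 82.6 CPM in shExosc10, and 103, 80.0, 104 and 72.5 CPM in shLuc libraries 1 to 4. This was the steadiest of the 10 genes, with a highest to lowest ratio of 1.86, and the groups overlapped. Gfi1b had a log2 fold change of -0.08 (SE 0.21; interval -0.52 to 0.37) in shDis3 against shLuc, -0.13 (SE 0.21; interval -0.58 to 0.32) in shExosc10 against shLuc and 0.05 (SE 0.21; interval -0.39 to 0.50) in shDis3 against shExosc10.

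Bcl11a (ENSMUSG00000000861.15; chromosome 11, 24078056 to 24174123, plus strand) encodes a repressor of embryonic and fetal globin genes, and 2 antisense genes overlap it. Bcl11a measured 213, 172, 235 and 71.1 CPM in shDis3 libraries 1 to 4, 91.2, 237, 200.03 and 213 CPM in shExosc10 libraries, and 232, 208, 206 and 207 CPM in shLuc libraries. The shLuc libraries lay within a narrow band that the other groups straddled, and shDis3 replicate 4 and shExosc10 replicate 1 stood far below the remaining 10. For Bcl11a the log2 fold change was -0.30 (SE 0.33; interval -1.0 to 0.40) in shDis3 against shLuc, -0.20 (SE 0.33) in shExosc10 against shLuc and -0.10 (SE 0.33) in shDis3 against shExosc10. Without the 3 libraries these values were -0.06 (SE 0.18), 0.02 (SE 0.18) and -0.08 (SE 0.18).

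E2f4 (ENSMUSG00000014859.9; chromosome 8, 105297663 to 105305370, plus strand) encodes an E2F factor of the cell cycle that fetal red cell production in mice requires. It measured 313, 198, 335 and 149 CPM in shDis3 libraries 1 to 4, 132, 199, 174 and 275 CPM in shExosc10 libraries, and 283, 285, 326 and 351 CPM in shLuc libraries. All 4 shExosc10 libraries lay below all 4 shLuc libraries, while shDis3 overlapped both groups. E2f4 was 1 of 10 members whose groups did not overlap in CPM in shExosc10 against shLuc, beside 2.48% of all genes. In shDis3 against shLuc the number was 0 of 10, beside 1.7%, and in shDis3 against shExosc10 it was 0 of 10, beside 3.71%.

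The log2 fold change of E2f4 in shExosc10 against shLuc was -0.67 (SE 0.27; interval -1.24 to -0.11), with an unadjusted p of 0.0234 and an adjusted p of 1.0 by edgeR, which missed the threshold. Over the alternatives other than the fit to 8 libraries it ranged from -0.88 to -0.46, with adjusted p-values of 0.974 to 1.0. Without the 3 libraries it was -0.46 (SE 0.23, unadjusted p = 0.0654 by edgeR). Without shDis3 replicate 2 as well it was -0.46 (SE 0.16, unadjusted p = 0.0115, adjusted p = 0.679 by edgeR). In the authors' TPM the groups overlapped, at 56.7 to 129 TPM in shExosc10 and 80.8 to 235 TPM in shLuc. The same gene had a log2 fold change of -0.32 (SE 0.27; interval -0.89 to 0.24) in shDis3 against shLuc and 0.35 (SE 0.27, adjusted p = 0.925) in shDis3 against shExosc10.

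Levels of different genes can be set side by side only per length, that is in TPM. In shDis3 libraries, E2f4 averaged 137 ± 76.3, Lmo2 131 ± 40.6, Ldb1 106 ± 54.7, Nfe2 94.9 ± 35.6 and Klf1 87.4 ± 35.5 TPM (SD, n = 4). In shExosc10 libraries these genes averaged 88.0 ± 30.2 (E2f4), 104 ± 23.8 (Lmo2), 92.6 ± 25.4 (Ldb1), 76.6 ± 6.89 (Nfe2) and 81.8 ± 14.4 TPM (Klf1). In shLuc libraries they averaged 144 ± 66.1 (E2f4), 97.9 ± 72.7 (Lmo2), 108 ± 44.6 (Ldb1), 75.8 ± 38.2 (Nfe2) and 93.1 ± 28.4 TPM (Klf1). These 5 formed the upper part of the order in every group. The ranges of neighbours in that order overlapped, although E2f4 was first of the 10 in each of the 4 shLuc libraries.

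The other 5 genes lay lower. Gfi1b averaged 64.0 ± 25.1 TPM in shDis3, 57.9 ± 16.6 TPM in shExosc10 and 51.2 ± 8.71 TPM in shLuc, and Bcl11a averaged 55.6 ± 31.7, 45.4 ± 15.1 and 56.0 ± 22.6 TPM in these groups. Cbfa2t3 averaged 29.5 ± 20.8, 17.0 ± 6.11 and 25.97 ± 23.1 TPM, Tal1 28.2 ± 15.9, 19.3 ± 2.44 and 22.8 ± 13.0 TPM, and Klf3 17.7 ± 9.54, 16.8 ± 7.18 and 17.2 ± 6.41 TPM. The corepressor gene Cbfa2t3 and Tal1 thus had lower mean levels than Lmo2 and Ldb1, whose products sit in the same complex. Between neighbours in the order, the one pair whose ranges did not overlap was Bcl11a above Tal1 in shExosc10. Among all genes tested, the shLuc means of the 10 lay between the 76.3 (Klf3) and 96.8 (E2f4) percentile.

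Ranking the 10 genes inside each library removes the scale of the library. E2f4 was first in 7 libraries, Lmo2 in 4 and Ldb1 in 1. Tal1, Klf3 and Cbfa2t3 took the lowest 3 places in all 12 libraries, with Klf3 last in 8 and Cbfa2t3 last in 4. Bcl11a took place 6 or 7 in every library. The scale itself varied: genes under 400 bases took 23.1% to 53.6% of the TPM of a library, highest in shLuc replicate 1, and the summed TPM of the 10 genes ran from 374 in that library to 1113 in shLuc replicate 4. The summed CPM ran from 843 in shDis3 replicate 4 to 1586 in shDis3 replicate 1, a narrower range. TPM differences between libraries therefore cannot be read as differences in expression alone, which holds for the marker sums and the limma fit too.

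Which libraries were low differed between the genes. Ldb1, Bcl11a, E2f4, Klf3 and Cbfa2t3 were each below 0.6 of their 12-library median CPM in shDis3 replicate 4 and shExosc10 replicate 1, and in no other library. Klf1, Tal1, Nfe2 and Gfi1b were below that bound in no library, and Lmo2 was below it in shLuc replicate 1. Cbfa2t3 alone exceeded 1.6 times its median, in shDis3 replicates 1 and 3 and shLuc replicate 4. Within a look-alike pair the shRNAs differed. The members differed by at most 0.26 on the log2 scale between shDis3 replicate 3 and shLuc replicate 4. Between shDis3 replicate 4 and shExosc10 replicate 1 they differed by at most 0.62 (Cbfa2t3). These pairs were picked for their likeness across all genes, so likeness of the members is in part built in.

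**Figure D3:**
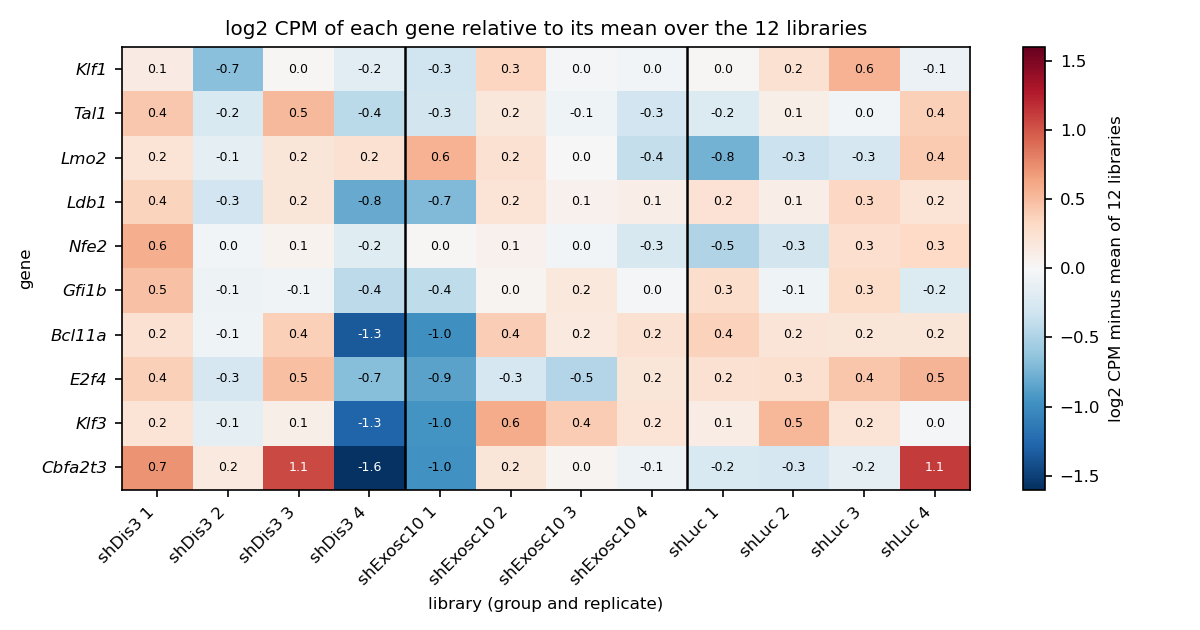
Log2 CPM of each of the 10 genes (vertical axis) in each of the 12 libraries (horizontal axis), minus the gene's mean over the 12; red is above and blue below that mean, with the value printed in each cell. Cbfa2t3 spans -1.58 in shDis3 replicate 4 to 1.12 in shLuc replicate 4, and Bcl11a and Klf3 reach -1.34 and -1.28 in shDis3 replicate 4.

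The spread of log2 CPM over the 12 libraries had an SD of 0.27 in Gfi1b, 0.29 in Nfe2, 0.31 in Klf1, 0.32 in Tal1, 0.38 in Lmo2 and 0.39 in Ldb1. It was larger in E2f4 (0.49), Bcl11a (0.56), Klf3 (0.57) and Cbfa2t3 (0.77). Over all genes that averaged 10 CPM or more the median was 0.32, and Cbfa2t3 stood at the 95.6 percentile of those genes. Group membership took up 39.8% of the variance of E2f4, 23.3% of Klf1, 20.7% of Lmo2 and 3.72% of Cbfa2t3, beside a median of 16.3% over the same genes. Cbfa2t3, the widest-varying member, had the smallest share, but that of Gfi1b, the steadiest member, was close to it at 4.33%.

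For each member, the gene most like it was the one with the smallest root mean square difference of centred log2 CPM over the 12 libraries, among 8219 genes; the libraries share depth and composition, so this is a description. Klf1 was nearest to Prkab1 (0.13), Klf3 to Cpox (0.16), Tal1 to Pabpn1 (0.09), Lmo2 to Pitpna (0.14) and Ldb1 to Ube2r2 (0.09). Cbfa2t3 was nearest to Hipk2 (0.15), Nfe2 to Ilk (0.11), Gfi1b to Retreg2 (0.11), Bcl11a to Kmt2e (0.10) and E2f4 to Fbxo46 (0.13). Among the members themselves, Bcl11a and Klf3 were each other's nearest (0.18), with 5 other genes nearer to Klf3 and 27 nearer to Bcl11a. The nearest member to Cbfa2t3 was Bcl11a, at 0.46, with 486 genes nearer.

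The deposited tables also give a length per gene and library, a mean over isoforms weighted by their estimated abundance. It follows the estimated mix of isoforms, but different mixes can give the same mean, so it cannot show that no isoform shifted. Lmo2, with 8 annotated isoforms of 328 to 1706 bases, had lengths of 1306, 1289, 1205 and 1221 bases in shDis3 libraries 1 to 4, 1333, 1323, 1327 and 1349 bases in shExosc10 libraries, and 1237, 1349, 1288 and 1256 bases in shLuc libraries. All shDis3 values lay below all shExosc10 values, and shLuc overlapped both. Of the 9 members with several isoforms, 1 (Lmo2) had groups that did not overlap in shDis3 against shExosc10, beside 2.35% of all such genes. The number was 0 of 9 in shDis3 against shLuc, beside 1.75%, and 0 of 9 in shExosc10 against shLuc, beside 1.87%.

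The lengths of the other genes overlapped between the groups. Cbfa2t3 ran from 2601 bases in shExosc10 replicate 4 to 4080 bases in shExosc10 replicate 2, a range of 43.1% of its mean. Gfi1b ran from 1114 to 1740 bases (42.6%) and Klf3 from 2310 to 3258 bases (34.7%), while E2f4 stayed within 1973 to 1990 bases (0.853%). Klf1 has 1 isoform of 1530 bases.

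**Figure D4:**
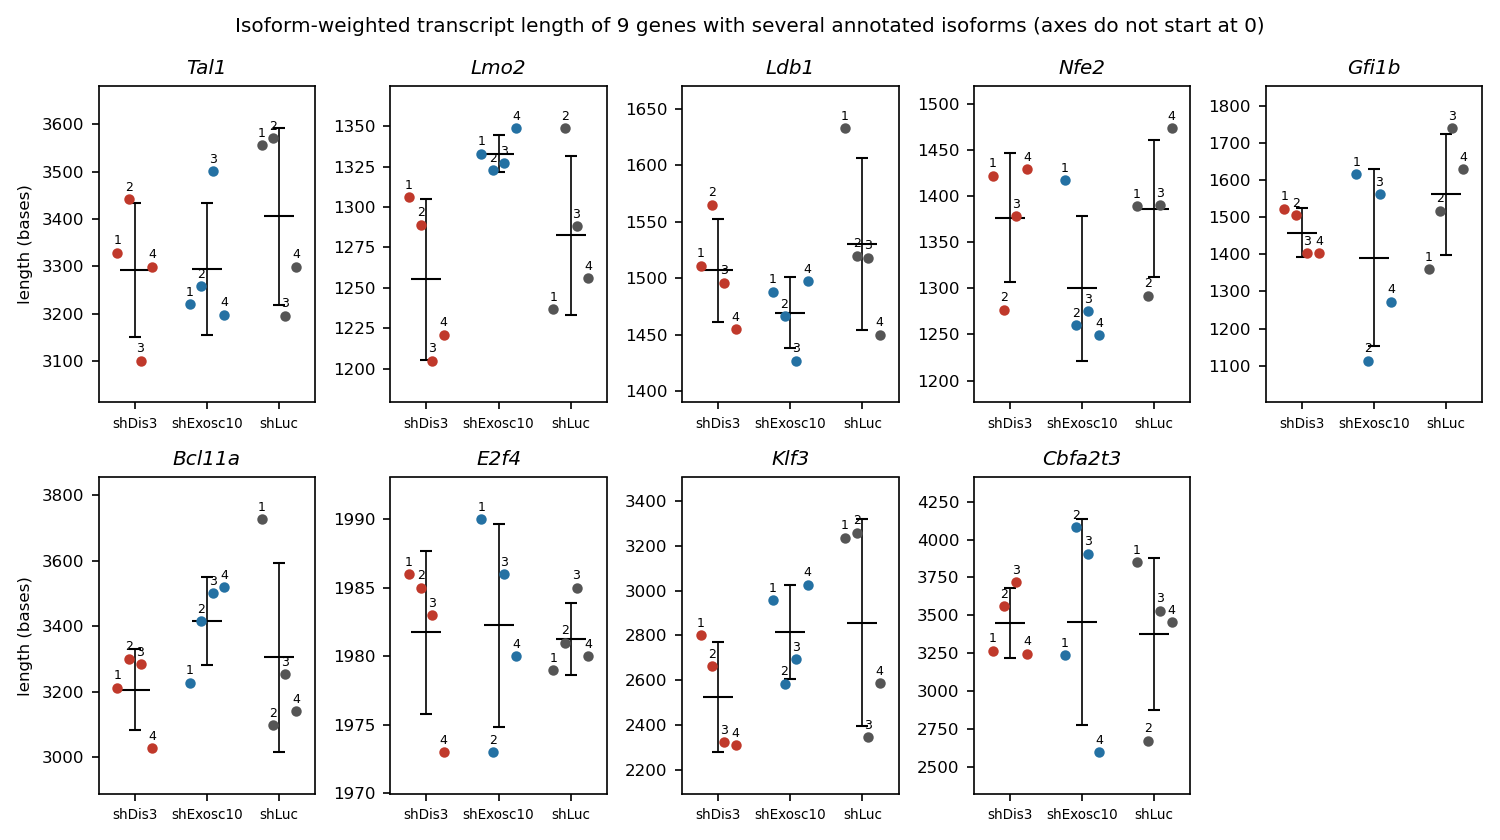
Isoform-weighted length in bases (vertical axis, not starting at 0) of the 9 genes with several annotated isoforms in shDis3, shExosc10 and shLuc libraries; points are libraries numbered by replicate, with the mean ± SD of 4. Lmo2 is shorter in all shDis3 libraries (1205 to 1306 bases) than in all shExosc10 libraries (1323 to 1349 bases), and the groups of the other genes overlap.

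The genes around the members were read from 5 lists, which share some genes and so are not independent of each other. Myb, Meis1 and Spi1 are both GFI1B and LSD1 repressed genes and other haematopoietic factors. Gata2 is also a partner, Gfi1 also a family relative, and E2f2 both a family relative and a KLF1 target. No gene of any list passed the threshold in any comparison by edgeR, DESeq2 or limma with all 12 libraries, beside the shares of all genes given above. Of 36 family relatives, 31 were tested, and 2, 3 and 3 of them had an unadjusted p under 0.05 in shDis3 against shLuc, shExosc10 against shLuc and shDis3 against shExosc10. Their median log2 fold changes were -0.05, -0.30 and 0.22. Over all genes tested, 47.4%, 47.8% and 48.8% of the log2 fold changes were negative in these comparisons. The relatives of highest level were Lyl1, a close relative of Tal1, at 42.5 ± 13.9 TPM in shDis3, 27.7 ± 2.29 TPM in shExosc10 and 36.8 ± 13.5 TPM in shLuc, Nfe2l2, which governs the oxidative stress response, and E2f8, a repressing E2F. Lyl1 had log2 fold changes of 0.01 (SE 0.17), -0.47 (SE 0.17) and 0.47 (SE 0.17) in those comparisons, with a lowest adjusted p of 0.764. Those of Nfe2l2 were 0.19, 0.24 and -0.05 (SE 0.20 each) and those of E2f8 -0.30, -0.47 and 0.17 (SE 0.32 each).

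All 41 partners and cofactors were tested, with medians of -0.08, -0.29 and 0.15 and 4, 3 and 3 genes at an unadjusted p under 0.05. Tfdp1, the dimer partner of E2F factors, averaged 139 ± 40.0 TPM in shDis3, 107 ± 26.8 TPM in shExosc10 and 108 ± 57.8 TPM in shLuc. Its log2 fold changes were 0.24, 0.13 and 0.11 (SE 0.20 each). The corepressor gene Ncor1 had values of -0.05, -0.32 and 0.27 (SE 0.24 each), and the nucleosome remodelling gene Chd4 -0.03, -0.32 and 0.29 (SE 0.29 each). In shExosc10 against shLuc 35 of 41 fold changes of this list were negative, and none was called. That number rested on the libraries used: without the 3 libraries it was 26 of 41, with a median of -0.05, beside 46.8% of all genes.

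Of 30 known KLF1 targets in the tables, which include the members Klf3, Bcl11a and E2f4, 24 had a negative log2 fold change in shDis3 against shLuc, 14 in shExosc10 against shLuc and 24 in shDis3 against shExosc10. The medians were -0.31, 0.04 and -0.24, with 2, 2 and 5 genes at an unadjusted p under 0.05. The lean depended on the method. DESeq2 also gave 24 negative values in each comparison with shDis3. Limma on log2(TPM + 1) gave 18 of 30 in shDis3 against shLuc (median -0.09), beside 28.2% of all genes. In shDis3 against shExosc10 it gave 18 of 30 (median -0.06), beside 36.6%. Tfrc, the gene of the transferrin receptor CD71 on which the cells were sorted, averaged 108 ± 9.50 TPM in shDis3, 201 ± 72.0 TPM in shExosc10 and 168 ± 59.3 TPM in shLuc. Its log2 fold change was -0.97 (SE 0.34, adjusted p = 1.0), 0.04 (SE 0.33, adjusted p = 1.0) and -1.01 (SE 0.34, adjusted p = 0.747). The β-globin genes Hbb-bs and Hbb-bt had values of 0.25 and 0.99 in shDis3 against shLuc and 0.77 and 1.17 in shExosc10 against shLuc (SE 0.54 to 0.63), and their expected counts were not whole numbers in all 12 libraries, so their values depend on how RSEM divided reads between genes.

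Of 13 genes known to be repressed by GFI1B and LSD1, 12 were tested, Gfi1b itself among them. In shDis3 against shExosc10 all 12 log2 fold changes were positive, with a median of 0.55, and in the comparisons with shLuc the medians were 0.32 (shDis3) and -0.23 (shExosc10). The progenitor factor gene Myb averaged 159 ± 71.0 TPM in shDis3, 110.1 ± 35.5 TPM in shExosc10 and 117 ± 104 TPM in shLuc, with log2 fold changes of 0.36, 0.12 and 0.24 (SE 0.32 each) in shDis3 against shLuc, shExosc10 against shLuc and shDis3 against shExosc10. Gata2, which precedes GATA1 at shared sites, had values of -0.52, -1.03 and 0.52 (SE 0.36 each). At an unadjusted p under 0.05 there were 0, 1 and 3 genes of this list.

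The 23 tested of 24 other haematopoietic factors had medians of 0.12, -0.36 and 0.53, with 0, 1 and 4 genes at an unadjusted p under 0.05. Ikzf1, the Ikaros gene, averaged 165 ± 99.7 TPM in shDis3, 117 ± 44.4 TPM in shExosc10 and 184 ± 89.5 TPM in shLuc, with log2 fold changes of -0.29, -0.41 and 0.13 (SE 0.25 each). Foxo3, a regulator of late red cell maturation and oxidative stress, had values of 0.06, -0.11 and 0.17 (SE 0.31 each). Several genes of this list and of the GFI1B list are also used in granulocytes and megakaryocytes, whose marker sums differed between libraries as given above; the part of those cells was not tested.

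**Figure D5:**
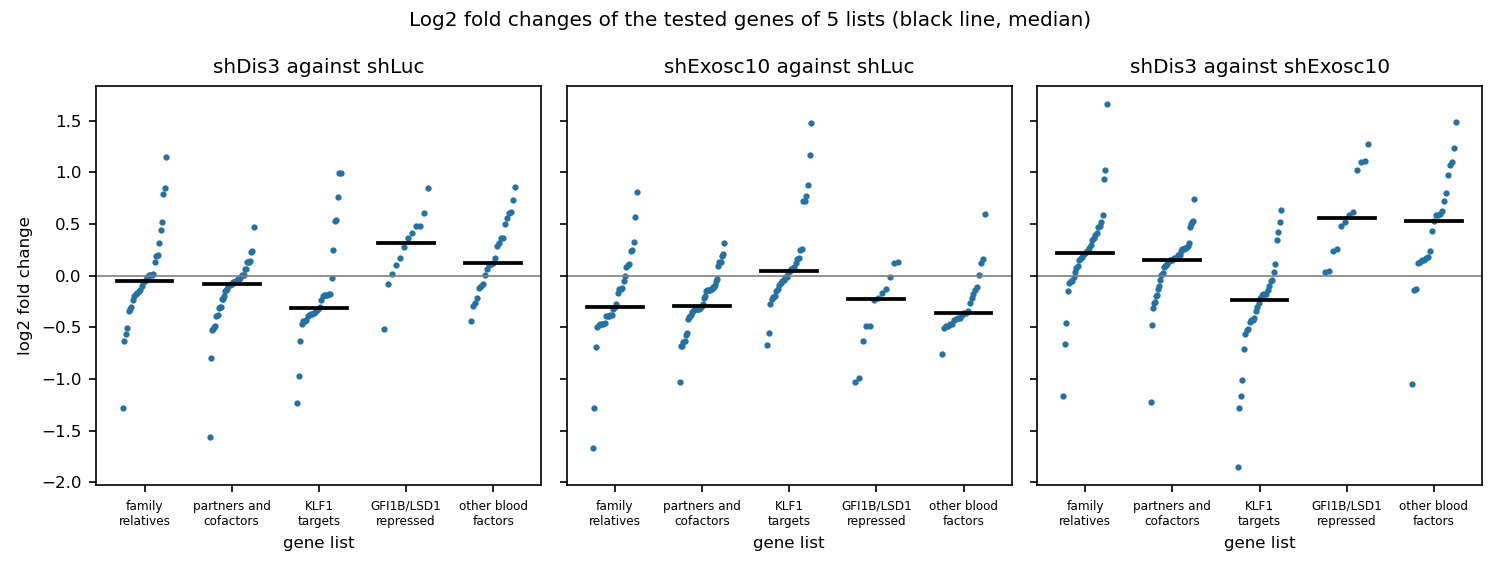
Log2 fold change (vertical axis) of each tested gene (points, sorted within a list) of 5 lists (horizontal axis) in the 3 comparisons; black lines are medians. In shDis3 against shExosc10 the medians are 0.22 (family relatives), 0.15 (partners), -0.24 (KLF1 targets), 0.55 (GFI1B and LSD1 repressed genes) and 0.53 (other factors); no gene shown passed the adjusted threshold.

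Without the 3 libraries that stood apart, more genes were called and some of the lists were among them. In shDis3 against shLuc, 7 of 23 other haematopoietic factors rose, as did 3 of 12 GFI1B and LSD1 repressed genes (Bcl2l1, Gfi1 and Meis1), when 772 genes (4.04%) were called in all. Meis1 is counted in both lists. In the same libraries, 13 of 17 megakaryocyte and 6 of 11 granulocyte markers rose, and the part of these cells was not tested. For shExosc10 against shLuc, 0 genes of these lists were called, beside 0.0157% of all genes. The medians there were -0.12 (family relatives), -0.11 (GFI1B and LSD1 repressed genes) and -0.01 (other factors, 12 of 23 negative), each nearer to 0 than with all 12 libraries. The median of the KLF1 targets lay further from 0, at 0.11 (20 of 30 positive) against 0.04. In shDis3 against shLuc the KLF1 target median was -0.38, against -0.31 with all 12 libraries. In shDis3 against shExosc10, 8 of 23 other factors rose, beside 3.23% of all genes. The genes named here were taken from this fit after its values were seen.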

How the data were processed

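RNA of 12 libraries (4 each of shDis3, shExosc10 and shLuc, grouped by the sample titles) was measured. Per the file headers, the authors deposited for each gene an RSEM expected count, TPM, FPKM and an isoform-weighted length in bases; FPKM was not used. RSEM 1.3.0, STAR 2.5.3a and the build GRCm38 are named, without roles, in the submitters' processing notes. Per the labels' protocols, libraries were made from total RNA with a stranded low-input kit. Annotation release, strand setting and filters: not given in the sources used here.

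Identifiers were matched to GENCODE M21 (GRCm38): 54487 of 55385 with version and 55144 without it. Expected counts were rounded and tested with edgeR 4.0.16 in R 4.3.3 (quasi-likelihood F-test, TMM factors of 0.856 to 1.13, default filter by group, all 12 libraries, group as the only term), with p-values adjusted by Benjamini and Hochberg over 17650 genes and a threshold of 0.05. The biological coefficient of variation was 60% and the prior degrees of freedom 5.45. Library totals of 14936178 to 32397192 counts set the precision; a Poisson interval covers counting error alone, because PCR copies of a molecule are counted as separate reads.

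Alternatives were RLE factors, no filter, DESeq2 1.42.0, limma 3.58.1 on log2(TPM + 1), the 2 compared groups alone, the replicate number as a block, leaving out each library, and leaving out 3 libraries. List counts under DESeq2, limma and without the 3 libraries, and the fit that also leaves out shDis3 replicate 2, were added after seeing the data. The members and the lists were chosen with earlier results of these data known. The genes named are the members, Dis3 and Exosc10, the 3 genes of highest mean TPM of each list, and the gene of nearest pattern to each member among genes of at least 10 CPM. Of 31 KLF1 targets and 16 erythroid markers, 30 and 15 matched by symbol.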

Additional observations from a re-analysis of the deposited data

Results flagged for a closer look

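Within each group of 4 libraries, the gap between the most extreme library and its nearest neighbour was divided by the range of log2 CPM in the group. Of 30 groups (10 genes in 3 groups of libraries), 4 exceeded Dixon's 95% critical value, which chance exceeds in about 1 of 20 groups. Cbfa2t3 in shLuc had a ratio of 0.918, with replicate 4 highest at 164 CPM and the others at 62.4 to 67.6 CPM. Bcl11a in shLuc had a ratio of 0.904, with replicate 1 highest at 232 CPM and the others at 206 to 208 CPM, a small difference in a tight group. Lmo2 in shDis3 had a ratio of 0.870, with replicate 2 lowest at 120.4 CPM and the others at 152 to 157 CPM. Ldb1 in shExosc10 had a ratio of 0.840, with replicate 1 lowest at 91.2 CPM and the others at 156 to 173 CPM.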

How the results depend on the processing

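Of the 30 fold changes of the 10 genes, none reversed or crossed the threshold with RLE factors, no filter, DESeq2, the 2 compared groups alone or the replicate block, and 22 kept their side with limma. The members called were 0 in these settings and 1 (Cbfa2t3, shDis3 against shLuc, 0.91) without the 3 libraries. Counts of all genes called, 0, 1 and 2 in shDis3 against shLuc, shExosc10 against shLuc and shDis3 against shExosc10, became 1, 1 and 2 with RLE factors, 123, 10 and 179 with no filter, 28, 6 and 49 with DESeq2, 0, 0 and 0 with limma, 0, 1 and 1 with 2 groups alone, 772, 3 and 617 without the 3 libraries, and 2460, 6 and 2699 without those and shDis3 replicate 2, a setting chosen after seeing the data, in which 3, 0 and 3 members were called. The replicate block gave 0, 1 and 1. Correlations of the deviations of same-numbered libraries ran from -0.47 to 0.773, and 8 of 12 were positive. Those of replicate 1 (0.171, 0.233 and 0.0961) and of replicate 2 (0.773, 0.373 and 0.397) were positive in all 3 comparisons. The 12 correlations were not over 0.1 for every pair, so the numbers were not taken to pair the samples. With each library left out, the counts ranged over 0 to 146 (146 without shLuc replicate 4), 0 to 2 and 1 to 2. The cause of these shifts was not tested.

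Signs turned with limma for Gfi1b (0.24) in shDis3 against shLuc, for Nfe2 (0.16) and Gfi1b (0.14) in shExosc10 against shLuc, and for Klf1 (0.02), Lmo2 (0.31), Ldb1 (0.07), Bcl11a (0.13) and Klf3 (0.02) in shDis3 against shExosc10. Without the 3 libraries they turned for Tal1 (0.01), Nfe2 (0.07), Bcl11a (0.02), Klf3 (0.13) and Cbfa2t3 (0.29) in shExosc10 against shLuc and for Lmo2 (0.11) in shDis3 against shExosc10. Without shDis3 replicate 2 as well they turned for Ldb1 (0.07), Gfi1b (0.07), Bcl11a (0.07) and E2f4 (0.13) in shDis3 against shLuc, for Tal1 (0.01), Nfe2 (0.07), Bcl11a (0.02), Klf3 (0.13) and Cbfa2t3 (0.29) in shExosc10 against shLuc, and for Lmo2 (0.23), Ldb1 (0.15) and Bcl11a (0.05) in shDis3 against shExosc10. With 1 library left out, 29 of 360 values turned. Ranges in shDis3 against shLuc were -0.21 to 0.58 (Cbfa2t3), -0.27 to 0.04 (Gfi1b), -0.05 to 0.26 (Nfe2) and -0.10 to 0.20 (Tal1). In shExosc10 against shLuc they were -0.33 to 0.04 (Bcl11a), -0.51 to 0.08 (Cbfa2t3), -0.21 to 0.20 (Klf3) and -0.16 to 0.09 (Nfe2). In shDis3 against shExosc10 they were -0.34 to 0.14 (Bcl11a), -0.14 to 0.16 (Gfi1b), -0.22 to 0.13 (Ldb1), -0.16 to 0.16 (Lmo2) and -0.02 to 0.25 (Nfe2).

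Depth did not limit these genes, whose lowest count was 534; the spread between libraries did.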
